A study of Mus musculus with 12 samples.

Results

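The stefin A family was described here through 6 genes, Gm5416, BC100530, Stfa1, Stfa2, Stfa3 and Stfa2l1, taken by symbol from the 19910 genes of a mouse RNA sequencing count table. They were chosen by the measured rise of Gm5416 and BC100530 with mutant NRAS against empty vectors, so values of that comparison, and of both mutants against the same empty-vector libraries, are given as a description with no test. Bone marrow of female C57Bl/6 mice aged 6 to 10 weeks was transduced with retrovirus, and the labels call the cells murine leukemia cells in all groups. The 4 groups, with 3 libraries each and 12 in all, received a pair of empty vectors, SETBP1 (D868N) with an empty vector, NRAS (G12D) with an empty vector, or SETBP1 (D868N) with NRAS (G12D), called empty, SETBP1, NRAS and SETBP1+NRAS. All groups therefore went through transduction, and the empty group is not untouched marrow. The promoter that drives the introduced genes, the time after transduction and the source of the replicates (mice, transductions or cultures) are not given in the sources used here, so p-values measure only the spread between these libraries.

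Stefins are the type 1 cystatins, small proteins without a secretion signal that stay in the cytosol. They bind reversibly in the active-site cleft of papain-like cysteine proteases, among them cathepsins B, H, L and S, which work mainly in lysosomes. Mice carry a cluster of stefin A copies where humans have CSTA, and the mouse copies are known from neutrophils, other myeloid cells and skin. Stefin B, encoded by Cstb outside the cluster, is expressed in most cell types.

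The cluster lies on chromosome 16 at chr16:36119946-36455392 (GRCm38, GENCODE M21), a span of 335.4 kb with 10 stefin A genes in the count table. In order along the chromosome, the members were Stfa2l1 (chr16:36156811-36161953), Gm5416 (chr16:36210403-36217788) and Stfa1 (chr16:36276951-36285373) on the plus strand, then BC100530 (chr16:36359382-36367748), Stfa2 (chr16:36403992-36408457) and Stfa3 (chr16:36450537-36455392) on the minus strand. All are annotated as protein coding. Gm5483, 2010005H15Rik and BC117090 lie among them, and Csta1 lies before Stfa2l1 at the start of the cluster. RefSeq names Gm5416 Csta3 and BC100530 Cstdc5, a match made by position and strand.

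The stretches of 75 bases, which end before the RefSeq start or, in BC100530, run across it, are shown because the 6 members share a run of 13 bases there, the longest shared run that holds TTTAAA. They are read 5′ to 3′ on each gene's strand from RefSeq (GRCm38.p6), which had an entry for 6 of 6 members, and capitals mark ACCTTTAAAACCC.
Gm5416 (chr16:36210278-36210352, plus strand): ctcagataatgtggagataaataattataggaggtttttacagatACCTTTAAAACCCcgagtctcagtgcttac
BC100530 (chr16:36367553-36367627, minus strand): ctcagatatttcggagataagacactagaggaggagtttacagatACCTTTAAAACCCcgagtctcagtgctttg
Stfa1 (chr16:36277070-36277144, plus strand): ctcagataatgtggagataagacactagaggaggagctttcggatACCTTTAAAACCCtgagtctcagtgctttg
Stfa2 (chr16:36408366-36408440, minus strand): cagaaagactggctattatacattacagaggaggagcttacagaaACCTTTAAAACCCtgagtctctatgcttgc
Stfa3 (chr16:36455397-36455471, minus strand): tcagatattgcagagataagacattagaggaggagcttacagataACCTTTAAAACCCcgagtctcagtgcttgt
Stfa2l1 (chr16:36156730-36156804, plus strand): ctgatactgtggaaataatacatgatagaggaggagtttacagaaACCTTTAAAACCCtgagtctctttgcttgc
The run began 12 bases before the RefSeq start of BC100530, between 32 and 36 bases before those of Stfa2, Stfa1, Stfa3 and Stfa2l1, and 80 bases before that of Gm5416, whose gene model has no untranslated region. On either strand, 9 of 32851 mouse promoters in RefSeq, each from 250 bases before to 50 bases after a gene's start, held it, or 0.0274%, all 9 on chromosome 16 and the 6 members among them. It was in the promoter of Gm5483 (Cstdc4 in RefSeq) and not in that of 2010005H15Rik (Csta2), and both of these genes were also high with NRAS. A link of the run to the change was not tested. TTTAAA, which lies inside it, was in 6 of 6 members and 13.2% of all promoters. The longest run that all 6 members share is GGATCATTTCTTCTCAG, 17 bases near the start that do not overlap the first run, found in these 6 promoters and in no other (0.0183%). Both runs were taken from the members' own promoters, so their presence in all 6 was fixed in advance. TATAAA was in 0 of 6 members and 13.6% of all promoters. GAGGAA, core letters bound by PU.1 and other ETS factors, was in 5 members, all but Gm5416, and in 28.3% of all promoters. TGANTCA, the core letters bound by AP-1 factors, was in 1 member, Stfa3, and in 7.81% of all promoters. A match of letters is a description of the sequence and not a measured site.

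The first 90 coding bases are shown because close copies may share reads, which bears on every value given for a single member. The transcripts are those of GENCODE M21, and capitals mark a base that differs from the commonest at its position within the set of 3. Gm5416, BC100530 and Stfa1 make 1 set, alike in all 3 genes at 81 of 90 bases.
Gm5416: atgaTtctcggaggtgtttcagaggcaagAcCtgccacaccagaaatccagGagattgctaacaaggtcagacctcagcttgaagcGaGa
BC100530: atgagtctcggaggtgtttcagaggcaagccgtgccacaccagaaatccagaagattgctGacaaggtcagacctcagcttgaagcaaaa
Stfa1: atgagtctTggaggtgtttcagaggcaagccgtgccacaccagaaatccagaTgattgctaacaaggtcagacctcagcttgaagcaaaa
Stfa2, Stfa2l1 and Stfa3 make the other set, alike in all 3 genes at 74 of 90 bases.
Stfa2: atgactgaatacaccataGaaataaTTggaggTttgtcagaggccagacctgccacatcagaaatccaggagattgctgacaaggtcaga
Stfa2l1: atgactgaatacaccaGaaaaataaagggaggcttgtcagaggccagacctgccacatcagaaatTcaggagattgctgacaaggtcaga
Stfa3: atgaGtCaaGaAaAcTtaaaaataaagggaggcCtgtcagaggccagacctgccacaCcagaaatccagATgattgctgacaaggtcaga
Over the aligned coding bases, with gap positions left out, the 15 pairs of members ranged in identity from 77.9% for Stfa1 and Stfa2l1 to 98% for BC100530 and Stfa1. BC100530 and Stfa1 had 294 aligned bases and 93 gap positions. Stfa2 and Stfa2l1 were 96.5% identical. Of the 50-base stretches of each transcript, 33.5% of those of BC100530, 25.4% of those of Stfa1, 16.8% of those of Stfa2l1 and 14.7% of those of Stfa2 occurred in another stefin A transcript. For Gm5416 and Stfa3 this share was 0%. Transcripts outside the stefin A genes held 7.84% of the stretches of Stfa2l1 and 1.18% of those of Stfa2. Read length and the rule for reads that match several genes are not given in the sources used here. Single values of BC100530, Stfa1, Stfa2 and Stfa2l1 are therefore uncertain, and the sum of the 6 members is given beside them. The sum does not correct for reads shared with genes outside the 6.

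Total counts ran from 7085894 to 8864919 per library. The introduced genes followed the labels: Nras was between 82 and 93 normalised counts-per-million (CPM, scaled between libraries by the trimmed mean of M-values) in the groups without NRAS and between 1420 and 1710 in those with it. Setbp1 had 0 counts in the empty and NRAS groups, 5 to 7 with SETBP1 and 11 to 17 with SETBP1+NRAS. SETBP1 replicate 3 stood apart, with log2 CPM correlating at 0.946 to 0.953 with its own group against 0.984 to 0.991 for every other pair of replicates, and the results that it alters most are given with and without it. Markers of blood cells were present throughout, with at least 1337 counts of Ptprc (the leukocyte antigen CD45), 2704 of Spi1 and 20805 of Mpo in each library.

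All 6 members were near 0 without NRAS and abundant with it. Their summed counts were 12, 9 and 8 in the 3 empty libraries, 9, 7 and 0 with SETBP1, 2887, 2902 and 2820 with NRAS, and 1971, 1804 and 2494 with SETBP1+NRAS. The lowest library with NRAS thus held many times the sum of all 6 libraries without it, and SETBP1 replicate 3 had 0 counts for each of the 6 members. In normalised CPM the sum was 1.18 ± 0.129 (SD, n = 3) with empty vectors, 0.666 ± 0.583 with SETBP1, 377 ± 18.0 with NRAS and 281 ± 52.5 with SETBP1+NRAS. In bulk RNA, fewer cells of a type and less RNA per cell cannot be told apart.

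**Figure D1:**
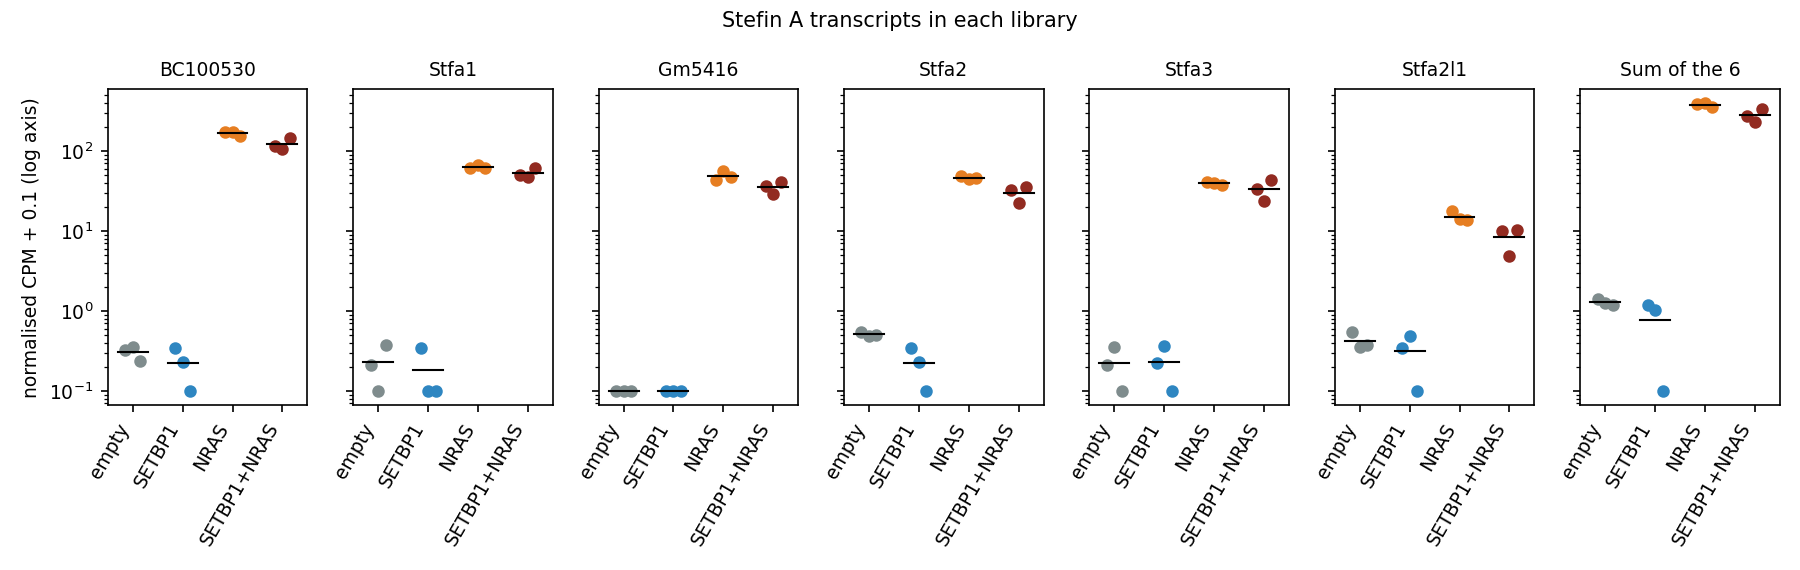
Normalised CPM plus 0.1 of each stefin A member and of their sum (log axis) in the 12 libraries, by group; points are libraries and bars are the means of the plotted values (n = 3). Every library with NRAS lies above every library without it for all 6 members, and the sum is at 377 CPM with NRAS and 281 CPM with SETBP1+NRAS.

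BC100530 had the most counts. It had 2, 2 and 1 counts in the empty libraries, 2, 1 and 0 with SETBP1, 1285, 1280 and 1200 with NRAS, and 817, 813 and 1083 with SETBP1+NRAS. NRAS and SETBP1+NRAS did not overlap, on counts or in normalised CPM (165 ± 11.3 and 121 ± 21.7). By normalised CPM, BC100530 ranked 12124th of 19910 genes in the empty group and 1339th in the NRAS group.

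Gm5416 was the one member without a single count in the 6 libraries lacking NRAS. It had 326, 409 and 372 counts with NRAS and 262, 224 and 305 with SETBP1+NRAS, every one of the first above every one of the second. Normalised CPM was 48.5 ± 6.24 with NRAS and 35.5 ± 6.27 with both. None of its 50-base stretches occurs in another stefin A transcript.

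Stfa1 had 1, 0 and 2 counts with empty vectors, 2, 0 and 0 with SETBP1, 466, 492 and 487 with NRAS, and 354, 370 and 452 with both. The groups with NRAS were closer here, at 63.3 ± 2.84 and 52.6 ± 7.23 normalised CPM, and still did not overlap. Stfa3, the other member with no shared 50-base stretch, had 1, 2 and 0 counts with empty vectors, 1, 2 and 0 with SETBP1, 312, 291 and 295 with NRAS, and 238, 184 and 317 with both. For Stfa3 the groups with NRAS overlapped, since SETBP1+NRAS replicate 3 was above all 3 NRAS libraries.

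Stfa2 had 4, 3 and 3 counts with empty vectors, 2, 1 and 0 with SETBP1, 366, 327 and 359 with NRAS, and 229, 176 and 262 with both. Its near copy Stfa2l1 had 4, 2 and 2 counts with empty vectors, 2, 3 and 0 with SETBP1, 132, 103 and 107 with NRAS, and 71, 37 and 75 with both. Both genes were lower in every SETBP1+NRAS library than in every NRAS library, and Stfa2l1 was the least abundant member.

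Against the empty group, summed NRAS counts at equal library size were 802-fold higher for BC100530 (95% counting interval 343 to 2470), 513-fold for Stfa1 (175 to 2489), 319-fold for Stfa3 (109 to 1548), 112-fold for Stfa2 (60.7 to 234) and 45.5-fold for Stfa2l1 (22.8 to 106). Gm5416 was at least 393-fold higher, against 3 counts over the whole empty group. The sum of the 6 was 316-fold higher (220 to 472). The intervals cover counting error only, and they are wide because the empty group held between 3 and 10 counts per member apart from Gm5416. This comparison chose the family, and 0.764% of the 10993 genes tested had a fitted rise of at least 16-fold in it. SETBP1+NRAS, set against the same empty libraries, gave 589-fold for BC100530, 426-fold for Stfa1, 268-fold for Stfa3, 72.4-fold for Stfa2, 24.8-fold for Stfa2l1 and at least 286-fold for Gm5416, with 235-fold for the sum (163 to 351). For each member all libraries of both groups with NRAS lay above all empty libraries, which was so for 28.4% of genes with NRAS and 30.7% with SETBP1+NRAS.

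Whether NRAS raised the family in the presence of mutant SETBP1 was tested between groups that the choice did not use. The fit took its spread and scaling from all 12 libraries, those of the choice among them. The members passed the low-count filter through the groups with NRAS, where they were high. Between SETBP1 and SETBP1+NRAS, 6 of 6 members rose (edgeR quasi-likelihood test with Benjamini-Hochberg adjustment over 10993 genes), where 20.9% of all genes tested were called higher. The adjusted p was 3.51e-11 for BC100530, 8.62e-10 for Stfa1, 2.93e-09 for Stfa2, 1.33e-08 for Stfa3, 8.53e-08 for Gm5416 and 4.13e-06 for Stfa2l1. The 3 libraries of each group did not overlap for any member, which was so in the higher direction for 24.8% of all genes. With only the 6 libraries compared in the fit, 6 of 6 members also rose past the threshold, where 28.9% of genes passed in either direction.

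The ratios of summed counts in that comparison were 986 for BC100530 (95% counting interval 337 to 4782), 641 for Stfa1 (177 to 5298), 269 for Stfa3 (91.5 to 1305), 242 for Stfa2 (82.6 to 1178) and 39.9 for Stfa2l1 (16.8 to 124), over 2 to 5 counts in the SETBP1 group. Gm5416 was at least 287-fold higher, against 3 counts over that group. The sum was 427-fold higher (263 to 748), and 279-fold without SETBP1 replicate 3. Of the 10993 genes tested, 0.81% had a fitted rise of at least 16-fold in this comparison.

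Per length of 1 transcript a gene, which allows genes to be compared, the NRAS libraries had BC100530 first at 267 ± 18.3 normalised CPM per kb (SD, n = 3). Gm5416 followed at 165 ± 21.2, over its coding sequence alone, then Stfa1 at 123.1 ± 5.52. Stfa2, at 97.7 ± 4.48, and Stfa3, at 95.5 ± 4.65, overlapped and did not differ beyond their spread. Stfa2l1 was last at 35.8 ± 5.11. With SETBP1+NRAS the same scale gave 196 ± 35.1 for BC100530, 121 ± 21.3 for Gm5416, 102 ± 14.1 for Stfa1, 80.5 ± 23.2 for Stfa3, 63.6 ± 14 for Stfa2 and 19.7 ± 7.27 for Stfa2l1. There Gm5416 overlapped Stfa1, Stfa1 overlapped Stfa3, and Stfa3 overlapped Stfa2. The order in the middle depends on the length used: over all annotated exons, a length chosen after seeing the data, BC100530 was at 209 ± 14.3 and Stfa1 at 89.1 ± 4 with NRAS, which put Stfa1 below Stfa2 and beside Stfa3.

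As shares of the summed counts, BC100530 took 43.7% ± 1.03 (SD, n = 3) with NRAS and 43.3% ± 1.81 with SETBP1+NRAS, which overlapped. Gm5416 took 12.9% ± 1.43 and 12.6% ± 0.568, also overlapping. Stfa1 took 16.8% ± 0.582 with NRAS and 18.9% ± 1.43 with both, without overlap, and Stfa3 10.4% ± 0.391 and 11.7% ± 1.31, with overlap. Stfa2 took 12.2% ± 0.829 and 10.6% ± 0.937, and Stfa2l1 3.97% ± 0.534 and 2.89% ± 0.783, each with overlap. The order BC100530, Stfa1 and then the others held in all 6 libraries with NRAS, and no test was run on the shares.

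**Figure D2:**
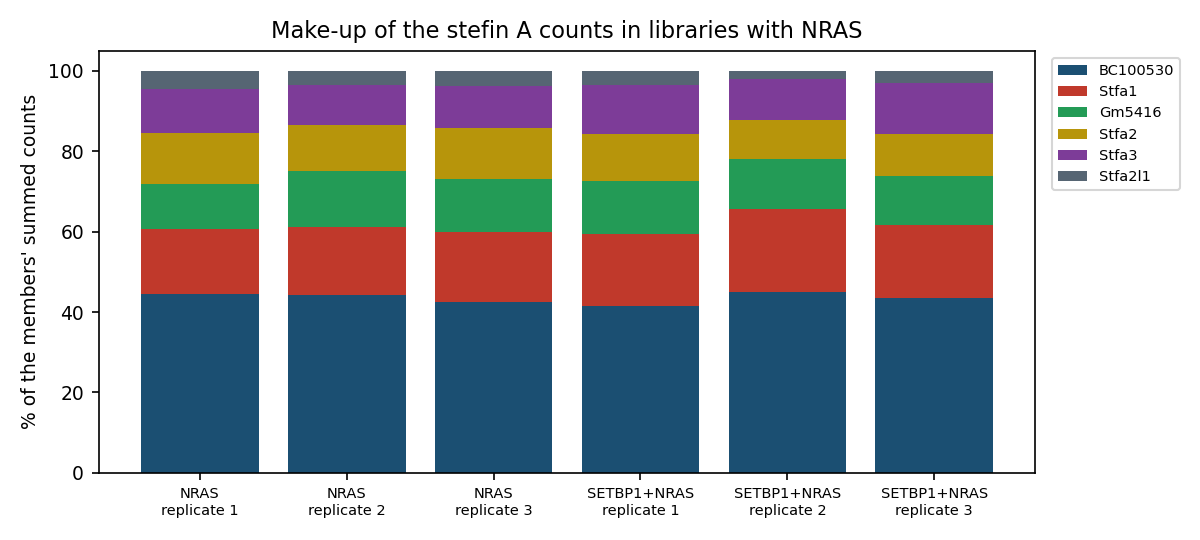
Share of the summed counts of the 6 stefin A members that each member took (y axis, %), in the 3 libraries with NRAS and the 3 with SETBP1+NRAS. BC100530 takes between 41.5% and 45.1% in each of the 6 libraries and Stfa2l1 between 2.05% and 4.57%.

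The series asks how mutant SETBP1 acts together with mutant NRAS, and for this family the matching comparison is SETBP1+NRAS against NRAS, which shares its NRAS libraries with the comparison that chose the members. All 6 fitted differences were below 0, and 0 of 6 members passed the threshold by the edgeR test over all genes, where 1.91% of genes did. At an unadjusted p under 0.05 there were 4 of 6, against 11.7% of genes. The members were chosen for high values in these same NRAS libraries, which favours lower values in the other group, so their counts at that p or without overlap are a description and not support. Stfa2l1 differed by -0.86 on the log2 scale (SE 0.31; 95% interval -1.53 to -0.20; edgeR adjusted p = 0.239), Stfa2 by -0.62 (SE 0.176; -1.0 to -0.24; adjusted p = 0.107), Gm5416 by -0.45 (SE 0.172; -0.82 to -0.08; adjusted p = 0.313) and BC100530 by -0.44 (SE 0.13; -0.72 to -0.16; adjusted p = 0.12). The intervals of Stfa1, at -0.27 (-0.63 to 0.10), and Stfa3, at -0.25 (-0.71 to 0.22), included 0.

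In 5 of 6 members, all but Stfa3, every SETBP1+NRAS library was below every NRAS library, which was so for 12.9% of all genes. SETBP1+NRAS replicate 2 had the lowest normalised CPM of the 6 libraries with NRAS for each member. Summed counts at equal library size were 0.743 times those with NRAS (95% counting interval 0.719 to 0.768), and between 0.669 and 0.813 times when any 1 library was left out. The members that pass differ with the libraries in the fit and with the tool. Without SETBP1 replicate 3, which takes no part in this difference itself, 3 members were lower past the threshold (edgeR adjusted p = 0.00726 for BC100530, 0.00555 for Stfa2 and 0.0276 for Stfa2l1), and 7.52% of all genes passed. With only the 6 libraries compared, 4 were (adjusted p = 0.041 for Gm5416, 0.00951 for BC100530, 0.00802 for Stfa2 and 0.0285 for Stfa2l1), and 8.37% of genes passed. With limma-voom Stfa2 alone passed (adjusted p = 0.041), as 1.67% of genes did, and with DESeq2 0 members did, where 3.45% of genes passed.

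**Figure D3:**
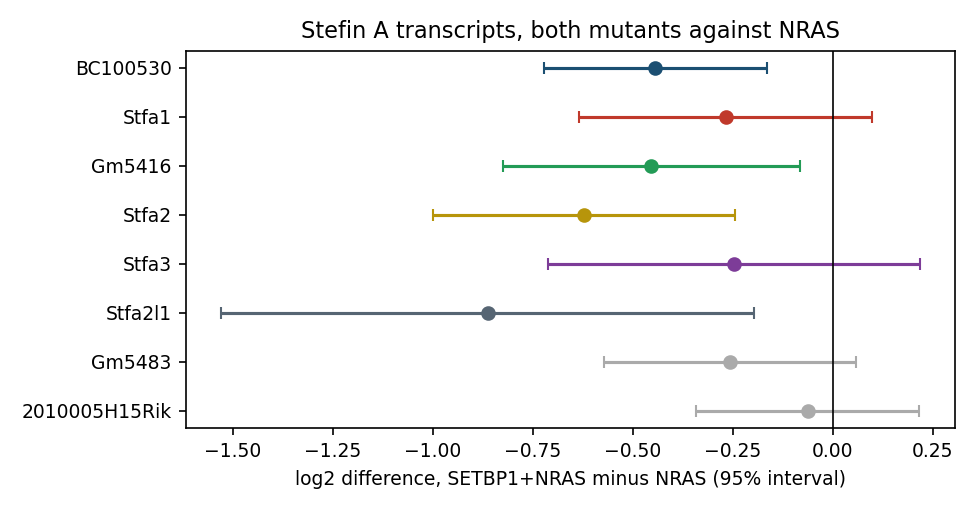
Fitted log2 difference of SETBP1+NRAS minus NRAS for the 6 members and, in grey, for 2 other stefin A genes (x axis; points are edgeR estimates over 3 libraries a group, bars their 95% intervals). All 8 points lie below 0, from -0.86 for Stfa2l1 to -0.06 for 2010005H15Rik, and the bars of Stfa1, Stfa3, Gm5483 and 2010005H15Rik include 0.

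Late neutrophil markers moved in the same comparison, and stefin A copies are known from neutrophils. Of 16 tested, 11 were lower with SETBP1+NRAS than with NRAS (1.38% of all genes were) and 0 higher (0.528%). Ltf, Ngp, Camp and Retnlg were among the 11, and the 5 that did not pass were Mmp8, Mmp9, Fpr1, Fpr2 and Padi4. The summed level of the markers fell from between 7938 and 9583 normalised CPM to between 3081 and 3758. Against the empty group 8 of the 16 fell with NRAS and 2, Mmp9 and Cxcr2, rose (15.5% and 17% of all genes did). Their sum, which a few abundant genes such as Chil3 and Ngp dominate, was 17560 to 19300 normalised CPM with empty vectors, 8496 to 12250 with SETBP1 and, as above, 7938 to 9583 with NRAS, where the stefins were abundant. None of the 16 was at 0 in all libraries. Of 10 monocyte and macrophage markers, 4 (Mrc1, Ccr2, Fcgr1 and Adgre1) were higher with SETBP1+NRAS than with NRAS and 1, Ly6c2, was lower, with a median difference of 0.42 against 0.00 for all genes. Their sum, most of it Ly6c2, was 4054 to 4394 normalised CPM with NRAS and 3754 to 4260 with both. The part of these markers' levels in the family's values was not tested. Keratinocyte markers, for the other known site of stefin A, summed to between 1.12 and 5.11 normalised CPM in any library, and 2 of the 8 were at 0 counts in all 12. The family's own sum reached 393 CPM.

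Mutant SETBP1 without NRAS left the family near 0. The empty libraries here are those of the comparison that chose the family. The members passed the low-count filter only through the groups with NRAS, so their calls here are a description and not support. Gm5416 had 0 counts in both groups, and of the other 5 members 0 passed the threshold against the empty group (edgeR adjusted p from 0.143 to 1), where 14.9% of all genes did, and 1, Stfa2, had an unadjusted p under 0.05, as 33% of genes did. DESeq2 and limma-voom also called 0 members. Stfa2 had 10 counts over the empty group and 3 over the SETBP1 group, a ratio of 0.299 (95% counting interval 0.0529 to 1.16; edgeR adjusted p = 0.143). The summed counts were 29 and 16, a ratio of 0.55 (0.279 to 1.05) that was 0.841 (0.427 to 1.6) without SETBP1 replicate 3 and 0.366 without SETBP1 replicate 1. Both intervals given for the sum included 1 and cover counting error only. At so few counts a modest difference between the groups could not be resolved at this depth.

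The interaction, which is the change with SETBP1 in the presence of NRAS minus that in its absence on the log2 scale, uses the NRAS and empty libraries that chose the family and says nothing of Gm5416, which had 0 counts without NRAS. It passed the threshold for 0 of the other 5 members (edgeR adjusted p from 0.584 to 0.947), where 0.0455% of genes did. At an unadjusted p under 0.05 there were 0 of 5, against 12.9% of genes. Its estimates ranged from -0.24 to 1.00, with SEs of 0.737 or more. The count was 0 with DESeq2 and with limma-voom too.

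The other stefin A genes of the cluster fell into 2 kinds. Gm5483 had 3 to 8 counts per library with empty vectors, 3 to 7 with SETBP1, 1654 to 1710 with NRAS and 1124 to 1674 with SETBP1+NRAS. 2010005H15Rik had 6 to 8, 7 to 11, 1010 to 1101 and 835 to 1196 counts in the same order. Both rose from SETBP1 to SETBP1+NRAS, by 8.11 (SE 0.263; edgeR adjusted p = 1.03e-10) and 6.96 (SE 0.211; edgeR adjusted p = 5.2e-11) on the log2 scale. With NRAS, Gm5483 was at 536 ± 20.3 normalised CPM per kb of its 414-base transcript and at 119 ± 4.52 over its 1862 annotated exon bases, so its place against BC100530 depends on the length used, and 35.6% of its 50-base stretches occur in another stefin A transcript. BC117090 had at most 4 counts in a library, and Csta1 had 2 counts in SETBP1 replicate 1 and 0 in the other 11. Over the 10 listed stefin A genes, summed counts were 70 with empty vectors, 60 with SETBP1, 16884 with NRAS and 13412 with SETBP1+NRAS, a ratio of 0.81 (95% counting interval 0.792 to 0.829) between the last groups. That interval leaves out the spread between libraries, and the groups overlapped, at 712 to 773 normalised CPM with NRAS and 482 to 722 with SETBP1+NRAS.

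Genes beside the cluster changed far less than its members. Of 10 listed genes within 250 kb on either side, a window chosen after values were seen, 8 had enough counts to test. With NRAS against empty vectors 3 of them rose (17% of all genes did) and 0 fell (15.5%): Kpna1, an importin, by 0.55 (SE 0.09), Fam162a by 0.94 (SE 0.104) and Ccdc58 by 0.79 (SE 0.116) on the log2 scale (edgeR adjusted p of 0.00038, 1.36e-05 and 0.000161). From SETBP1 to SETBP1+NRAS the same 3 rose (20.9% of all genes did) and 1, Wdr5b, fell (21.5%). Wdr5b fell by 1.26 (SE 0.271; edgeR adjusted p = 0.00226), the largest change among these neighbours in either comparison. Casr, the nearest gene past Stfa3, had 0 counts in all 12 libraries.

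**Figure D4:**
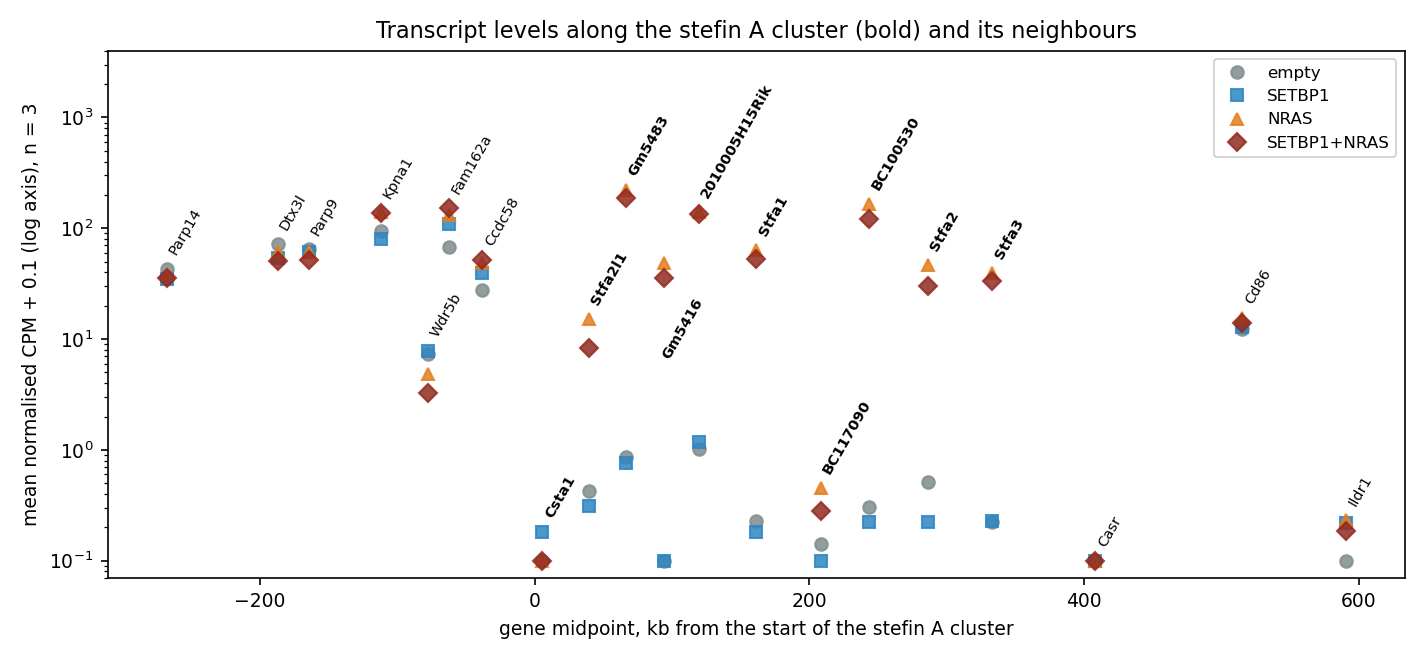
Mean normalised CPM plus 0.1 (log axis; n = 3 libraries a group, no error bars) of the stefin A genes, in bold, and their neighbours, by distance of the gene's midpoint from the start of the cluster in kb. In 8 stefin A genes the groups with NRAS lie far above the other groups, while the neighbours on either side show changes of at most 1.26 on the log2 scale.

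Among the cysteine proteases, Ctsl rose with NRAS in both comparisons, as the family did, and it alone of the 10 tested did. The list held 11 genes, all cathepsins but Lgmn. With SETBP1 against empty vectors 5 rose (8.31% of all genes did) and 0 fell (6.55%), with a median difference of 0.67 against -0.01 for all genes. Lgmn, the lysosomal asparaginyl endopeptidase, which is not papain-like, rose by 1.17 (SE 0.147; edgeR adjusted p = 0.000828), Ctss by 1.25 (SE 0.215; adjusted p = 0.00402), Ctsb by 0.96 (SE 0.184; adjusted p = 0.00645), Ctsl by 0.68 (SE 0.177; adjusted p = 0.0243) and Ctsz by 0.67 (SE 0.146; adjusted p = 0.0121). Without SETBP1 replicate 3 the rises were smaller and all 5 still passed (adjusted p from 1.09e-05 to 0.0107), at 0.97 for Lgmn, 0.85 for Ctss, 0.61 for Ctsb, 0.35 for Ctsl and 0.39 for Ctsz. With only those 6 libraries in the fit, Ctss, Ctsb, Ctsz and Ctsl no longer passed (adjusted p from 0.0649 to 0.127). Without empty replicate 1 or 3 Ctsl and Ctsz did not pass either (0.0503 to 0.0905), nor did Ctsl without empty replicate 2 (0.0524).

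With NRAS against empty vectors 1 of the 10 rose and 3 fell, where 17% of all genes rose and 15.5% fell. Ctsl, encoding cathepsin L, was at 165 ± 8.27 normalised CPM with empty vectors and 682 ± 67.9 with NRAS, a rise of 2.04 on the log2 scale (SE 0.181; edgeR adjusted p = 1.69e-06). Ctsh, encoding the aminopeptidase cathepsin H, fell from 282 ± 40.2 to 89.1 ± 15.9 (log2 -1.66, SE 0.212; edgeR adjusted p = 4.55e-05). Ctss, which processes the invariant chain in antigen-presenting cells, fell from 432 ± 75.7 to 242 ± 29.4 (log2 -0.84, SE 0.216; edgeR adjusted p = 0.00885). Ctsf, the third that fell, had at most 21 counts in a library. Ctsb was at 1215 ± 114 and 1384 ± 138 and did not pass (log2 0.19, SE 0.183; edgeR adjusted p = 0.469).

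From SETBP1 to SETBP1+NRAS, where the stefins rose, 1 cathepsin rose (Ctsl, log2 1.90, SE 0.179; edgeR adjusted p = 2.26e-06) and 4 fell. Of all genes tested, 20.9% rose and 21.5% fell. Ctsh fell by 2.05 (SE 0.213; edgeR adjusted p = 6.18e-06) and Ctss fell by 1.57 (SE 0.218; adjusted p = 6.94e-05). Ctsz fell by 0.40 (SE 0.146; adjusted p = 0.0392), a call lost with limma-voom (adjusted p = 0.0534), with only those 6 libraries (0.121) and without any 1 library of SETBP1+NRAS (0.08 to 0.101). Without SETBP1 replicate 3, Ctsz fell by 0.12 (edgeR adjusted p = 0.0972). Without that library Ctsl rose by 2.23, Ctsh fell by 1.69 and Ctss fell by 1.18, each past the threshold. Ctsk, the fourth, had at most 46 counts in a library. Between NRAS and SETBP1+NRAS only Lgmn of the 10 passed, where 1.91% of all genes did. It was 0.89 higher with both (SE 0.146; edgeR adjusted p = 0.00579).

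**Figure D5:**
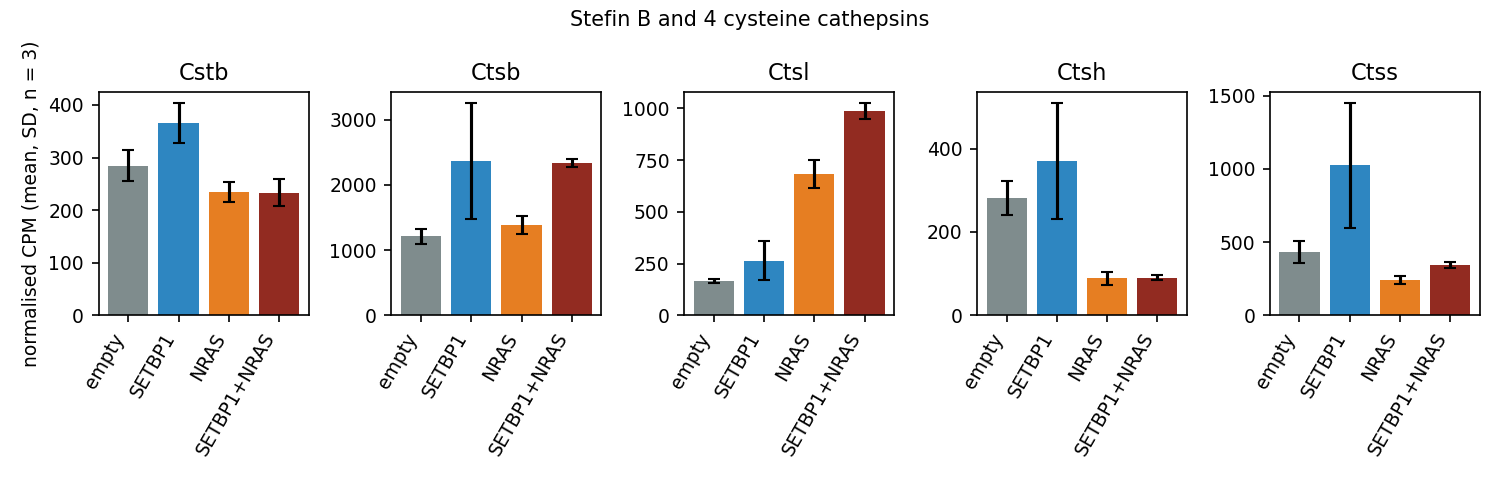
Normalised CPM of stefin B (Cstb) and of cathepsins B, L, H and S in the 4 groups (bars are means, error bars SD, n = 3, each panel with its own y axis from 0). Ctsl is highest with SETBP1+NRAS at 989 CPM, while Ctsh is near 89 CPM in both groups with NRAS and at 282 CPM with empty vectors.

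Stefin B and the other cystatins also went apart from stefin A. Of 15 listed, 3 were tested and 9 had no count in any library. Cstb was at 284 ± 29.3 normalised CPM with empty vectors, 367 ± 38 with SETBP1, 235 ± 18.7 with NRAS and 233 ± 26 with SETBP1+NRAS. It fell by 0.65 from SETBP1 to SETBP1+NRAS (SE 0.107; edgeR adjusted p = 0.000298) and rose by 0.37 with SETBP1 against empty vectors (SE 0.107; edgeR adjusted p = 0.0353), a call that 6 of the 12 fits with 1 library left out lost. Cst3, encoding the secreted cystatin C, fell by 0.96 with NRAS against empty vectors (SE 0.16; edgeR adjusted p = 0.000425) and by 1.32 from SETBP1 to SETBP1+NRAS (SE 0.161; adjusted p = 2.31e-05). Cst7, encoding cystatin F, fell by 0.37 in the latter comparison (SE 0.0807; edgeR adjusted p = 0.00262). None of the 3 changed between NRAS and SETBP1+NRAS past the threshold.

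The genes whose pattern over the 12 libraries came nearest to the family's sum were sought among all genes tested other than stefin A genes, by the root mean square difference of log2 normalised CPM centred on each gene's mean. Tm4sf1, a tetraspanin-like membrane protein, came first at 0.862, then Rgs16, a regulator of G-protein signalling, at 1.10, Gem, a small GTPase, at 1.18, Emp2 at 1.40 and Spp1, osteopontin, at 1.44. The family's own centred values spanned 10.6, and its members lay between 0.437 (BC100530) and 1.96 (Stfa2l1) from the sum. Tm4sf1 had 0 to 2 counts per library with empty vectors, 0 with SETBP1, 376 to 423 with NRAS and 242 to 270 with SETBP1+NRAS. Spp1 was present in every group, at 130.5 ± 65 normalised CPM with empty vectors, 406 ± 217 with SETBP1, 24760 ± 1910 with NRAS and 31400 ± 3360 with SETBP1+NRAS.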

How the data were processed

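Total RNA of 12 libraries was sequenced after low-input library preparation, per the labels. The authors deposited 1 table of whole-number read counts per gene symbol, not normalised. The submitters' processing notes name STAR, DESeq2 and mm10, with no version. The annotation, the counting and strand rules, the read length and the filter that the table's name mentions are not given in the sources used here.

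The members and gene lists were chosen with earlier results of these data known. From the counts, a quasi-likelihood model with 1 mean per group took in all 12 libraries in edgeR 4.0.16 in R 4.3.3, with trimmed mean of M-values scaling and filterByExpr (minimum count 10, minimum total 15), which left 10993 of 19910 genes with 99.9% of the counts. Tests were two-sided, and the Benjamini-Hochberg adjustment ran over these genes with a threshold of 0.05. All 6 members passed the filter through the groups with NRAS, where they were high. Fold changes from groups near 0 are ratios of summed counts over summed effective library sizes, with exact 95% conditional intervals, or against a floor of 3 counts over the group where it held 0. These intervals and floors cover counting error only. Precision is limited by depth, which was 7085894 to 8864919 counts per library. Log2 CPM for the likeness of patterns used a prior count of 2.

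Named genes were the 6 members, the other listed stefin A genes, members of 4 protease and inhibitor lists past the threshold with at least 50 normalised CPM in their highest group (at most 4 per list and comparison), Cstb, Ctsb, Ctsl, Ctsh and Ctss always, and the 5 genes nearest in pattern. The neighbours of the cluster, Ctsf and Ctsk fall outside this rule and were named after their values were seen. Alternatives were DESeq2 1.42.0, limma-voom (limma 3.58.1), 3 other scalings, 2 other filters, a replicate block, only the groups compared, a threshold of 0.01, each library left out, and 2 other make-ups of the sum. Levels per kb over all annotated exons were added after seeing the data. The test was checked on simulated counts with known changes.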

Additional observations from a re-analysis of the deposited data

How the results depend on the processing

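The number of members past the threshold was 6 for SETBP1+NRAS against SETBP1 under every alternative tried, 0 for SETBP1 against empty under every one that could give a value (with only the groups compared, no member passed the low-count filter) and 0 for the interaction, which could not be fitted with only 2 groups. For SETBP1+NRAS against NRAS it was 0, 1 with limma-voom, 4 with only the groups compared, and between 0 and 3 with 1 library left out, 3 being without SETBP1 replicate 3. Over all genes that comparison called 210, and 379 with DESeq2, 883 with only the groups compared, 86 at a threshold of 0.01 and 93 to 836 with 1 library left out. SETBP1 against empty called 1633 genes, 110 with only the groups compared, 379 at 0.01 and 390 to 3191 with 1 library left out. SETBP1+NRAS against SETBP1 called 4661, 3083 with only the groups compared and 3043 at 0.01. The interaction called 5 genes, 93 with DESeq2, 3 with limma-voom, 14 with no low-count filter, 1 at 0.01 and 1 to 110 with 1 library left out. The ratio of the family sum moved beyond the spread between libraries when only BC100530 was used. It was then 801.6 for NRAS against empty, 589.3 for SETBP1+NRAS against empty and 985.6 for SETBP1+NRAS against SETBP1. With every stefin A gene listed the ratio moved to 256.8 for NRAS against empty. It stayed within that spread at 243.6 for SETBP1+NRAS against SETBP1 and 0.854 for SETBP1 against empty. With 1 library left out it ran from 0.669 to 0.813 for SETBP1+NRAS against NRAS, 301.7 to 337.5 for NRAS against empty, 211.8 to 257.2 for SETBP1+NRAS against empty, 279.4 to 639.3 for SETBP1+NRAS against SETBP1 and 0.366 to 0.841 for SETBP1 against empty. Scaling to library size alone shifted the median of all genes by -0.12 on the log2 scale for SETBP1+NRAS against empty, and the share of calls that were higher went from 52.2% to 37.8% for NRAS against empty, 51.1% to 36.3% for SETBP1+NRAS against empty and 49.2% to 37.3% for SETBP1+NRAS against SETBP1; the members' fitted differences for SETBP1+NRAS against NRAS then ran from -0.89 to -0.28. The cause of these shifts was not tested. Of 1296 recomputed values of single genes, 1212 kept their direction and side of the threshold, 76 fell short of it, 8 newly passed it and 0 reversed.

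Same-numbered libraries did not deviate together, with r from -0.127 to 0.124 over 18 pairs. With 3 libraries a group and the source of the replicates not given, whether the replicate numbers pair the samples is not known. With the replicate block, 0 members passed for SETBP1 against empty, 0 for SETBP1+NRAS against NRAS and 6 for SETBP1+NRAS against SETBP1, and over all genes 1177, 164 and 4404 did. Counts limit what can be read without NRAS, where the members summed to 29 counts with empty vectors and 16 with SETBP1.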

Other observations

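Other protease inhibitors of myeloid cells were measured in the same libraries. Serpinb2, encoding plasminogen activator inhibitor 2, was at 4.58 ± 1.22 normalised CPM (SD, n = 3) with empty vectors, 8.88 ± 10.5 with SETBP1, 139 ± 19.6 with NRAS and 213 ± 31.5 with SETBP1+NRAS. It rose with NRAS against empty vectors (log2 4.91, SE 0.526; edgeR adjusted p = 1.04e-05) and from SETBP1 to SETBP1+NRAS (log2 4.56, SE 0.487; edgeR adjusted p = 7.35e-06). Serpinb1a, which inhibits neutrophil serine proteases, fell in each of the same comparisons, by 0.72 (SE 0.0831; edgeR adjusted p = 1.92e-05) and 0.79 (SE 0.0838; edgeR adjusted p = 6.88e-06).

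Serine proteases of neutrophil granules were also lower with NRAS. Elane, encoding neutrophil elastase, was at 6436 ± 531 normalised CPM with empty vectors, 5318 ± 515 with SETBP1, 2329 ± 307 with NRAS and 1310 ± 59.1 with SETBP1+NRAS, fell by 1.47 with NRAS against empty vectors (SE 0.104; edgeR adjusted p = 1.97e-07) and fell by 0.83 between the last groups (SE 0.102; edgeR adjusted p = 0.000986). Prtn3, encoding proteinase 3, fell by 0.57 there (SE 0.101; edgeR adjusted p = 0.00959), a call lost (adjusted p from 0.0501 to 0.0593) without NRAS replicate 2 and without replicate 1 or 3 of SETBP1+NRAS. These genes belong to a wider list of 8 lysosomal and granule proteases, not all of them serine proteases or neutrophil granule proteins. Of the 8, 5 (Elane, Prtn3, Ctsg, Tpp1 and Napsa) fell and 1, Ctsd (cathepsin D), rose with NRAS against empty vectors, where 15.5% and 17% of all genes did. The rise of Ctsd (edgeR adjusted p = 0.0108) was lost without empty replicate 3 (0.0533).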
